A study of Homo sapiens with 12 samples.

Results

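The 10 genes described here encode the AP-1 proteins of the FOS family (FOS, FOSB, FOSL1 and FOSL2) and of the JUN family (JUN, JUNB and JUND), the zinc finger factor EGR1, the early response protein IER2 and the growth factor-responsive regulator MYC. They were taken by gene symbol from the deposited table, in which all 10 of 10 were found among 60662 genes. The cells were NCI-H295R, an established line from a human adrenocortical carcinoma that makes cortisol. All cultures were held without serum for 12 h and then received, for 24 h, vehicle (VEH, 0.1% DMSO), CJ28 (30 µM), a benzimidazolylurea made as an inhibitor of cortisol production, or metyrapone (MET, 30 µM), which blocks 11β-hydroxylase. Each group had 4 samples, numbered 1 to 4, all of the same line, so the data describe this line alone. The sources used here do not say how the 4 samples were separated, so p-values measure the spread between these samples, which may be technical. Expression was measured by RNA-seq of total RNA depleted of ribosomal RNA and is given in TPM, in which reads are divided by transcript length and each library is brought to the same sum.

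Immediate early genes are transcribed within minutes of a stimulus, without new protein synthesis, and most of their mRNAs decay quickly, so that the first peak is usually over long before 24 h. The kinases ERK, JNK and p38 act on factors such as SRF with ELK1, CREB and ATF2 that already sit at these genes. FOS proteins cannot pair with each other and bind DNA chiefly as partners of a JUN protein, whereas JUN proteins also pair among themselves or with ATF proteins. MYC acts as a dimer with MAX and promotes growth and ribosome production. In the adrenal cortex, corticotropin and angiotensin II are known inducers of FOS, JUN and EGR1.

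With CJ28, JUN more than doubled, from 4.71 ± 0.258 to 10.2 ± 0.877 TPM (mean ± SD, n = 4 here and below), JUND rose from 22.6 ± 1.59 to 34.2 ± 3.20 TPM and IER2 from 2.42 ± 0.361 to 3.30 ± 0.580 TPM. JUNB, FOS and EGR1 did not pass the test, and FOSL2 (higher) and MYC (lower) passed it only under some alternatives. FOSL1, too low to be tested in the main analysis, was at 0.120 ± 0.0497 TPM in VEH and 0.270 ± 0.0490 in CJ28, without overlap. With MET, none of the 8 members that could be tested passed the test. The rest of the text gives the sequences upstream of these genes, the values in every sample and the genes that act with them.

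The sequences upstream of the start site are shown for the 3 members that rose with CJ28 and for JUNB, FOS and EGR1, which did not pass the test. Some of the sites through which such genes are classically switched on lie in such stretches. RefSeq windows of 300 bases, from 250 before to 50 after the start site, were matched for 8 of the 10 members (build GRCh38.p14). FOSL1 and MYC were not matched. The stretches printed end at the base before the RefSeq start site and read 5′ to 3′ on the strand of the gene. They are JUN at chr1:58784048-58784137 (minus strand), JUND at chr19:18281623-18281872 (minus), IER2 at chr19:13150271-13150410 (plus), JUNB at chr19:12791346-12791485 (plus), FOS at chr14:75278738-75278827 (plus) and EGR1 at chr5:138465339-138465478 (plus). Capitals mark TGACATCA in JUN, TGACGTCA (the full cAMP response element) and, further down, TGACG in JUND, TGACG (a shorter form of that element) in IER2, JUNB and FOS, and TGACG with the CArG box, the SRF site, in EGR1. On the other strand TGACG reads CGTCA, as in IER2, EGR1 and the second capitals of JUND. The TGACG of JUN lies upstream of the stretch printed.
JUN: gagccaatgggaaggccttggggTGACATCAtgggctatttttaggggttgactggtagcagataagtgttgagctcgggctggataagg
JUND: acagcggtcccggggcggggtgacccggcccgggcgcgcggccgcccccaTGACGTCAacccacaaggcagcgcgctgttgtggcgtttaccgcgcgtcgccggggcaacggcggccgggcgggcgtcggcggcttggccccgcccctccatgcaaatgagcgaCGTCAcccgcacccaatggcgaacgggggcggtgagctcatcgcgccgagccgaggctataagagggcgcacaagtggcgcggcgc
IER2: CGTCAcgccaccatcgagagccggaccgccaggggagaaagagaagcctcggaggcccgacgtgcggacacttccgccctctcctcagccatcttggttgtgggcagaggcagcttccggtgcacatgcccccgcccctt
JUNB: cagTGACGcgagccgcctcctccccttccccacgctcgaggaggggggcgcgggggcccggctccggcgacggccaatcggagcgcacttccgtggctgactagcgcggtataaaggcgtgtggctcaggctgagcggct
FOS: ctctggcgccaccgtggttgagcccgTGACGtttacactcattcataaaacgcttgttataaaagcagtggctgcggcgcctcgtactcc
EGR1: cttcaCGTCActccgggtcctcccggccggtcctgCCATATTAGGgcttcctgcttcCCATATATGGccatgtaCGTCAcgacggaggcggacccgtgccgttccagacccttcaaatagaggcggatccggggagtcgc

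The letters were searched on both strands of the whole 300 bases. TGACGTCA contains TGACG on both strands, so those matches overlap. JUND held TGACGTCA, as did 1.85% of the 35116 RefSeq windows of this length, and JUN held TGACATCA, as did 2.61% of them. At least 1 TGACG was present in each of the 8 windows, against 24.6% of all windows. The windows behind these shares were not matched to the members for base content. EGR1 had 2 CArG boxes, a motif found in 1.29% of windows, and none of the other 7 windows had one. Bases more than 250 before the start site were not searched. A window without a motif therefore does not mean a gene without that site. The AP-1 motif TGANTCA (7.71% of windows) was present in that of FOSL2 alone. The E-box CACGTG (7.26% of all windows) was in none of the 8. A match describes letters and not binding, and members that rose and members that did not pass the test both carried TGACG.

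All 10 genes lie on GRCh38 as the table gives them. JUN (ENSG00000177606.7) spans chr1:58780791-58784047, JUNB (ENSG00000171223.6) chr19:12791486-12793315 and JUND (ENSG00000130522.6) chr19:18279694-18281622, and the canonical transcript of each has 1 exon in GENCODE v44, where JUN is annotated over a longer span. FOS (ENSG00000170345.10) lies at chr14:75278826-75282230, FOSB (ENSG00000125740.14) at chr19:45467995-45475179, FOSL1 (ENSG00000175592.9) at chr11:65892049-65900573 and FOSL2 (ENSG00000075426.12) at chr2:28392448-28417317, each with 4 exons. EGR1 (ENSG00000120738.8, chr5:138465479-138469303) and IER2 (ENSG00000160888.7, chr19:13150411-13154911) have 2 exons, and MYC (ENSG00000136997.19, chr8:127735434-127742951) has 3. Long non-coding genes, at no more than 1.33 TPM in any sample, overlap FOSL2 (AC104695.2 and AC104695.4), IER2 (AC011446.2 and AC011446.3) and MYC (CASC11). Of these only AC104695.4 lies on the strand of its member, with mean TPM of 0.36 in VEH and 0.485 in CJ28. JUNB is overlapped on the opposite strand by HOOK2 and FOSB by ERCC1. The library kit keeps strand, but the strand setting of the quantification is not given in the sources used here, so reads from such pairs may not be fully told apart. HOOK2, looked at for this reason, had mean TPM of 5.97 in VEH, 8.97 in CJ28 and 5.49 in MET. The mean TPM of JUNB was 7.56 in VEH and 7.33 in CJ28. Whether reads of HOOK2 entered the values of JUNB was not tested.

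The label of the line was checked against its markers. All 8 adrenocortical markers (NR5A1, CYP11A1, STAR, CYP17A1, HSD3B2, MC2R, INHA and CYP21A2) were detected in each group. A mean of at least 1 TPM was reached by 7 of them in VEH, 5 in CJ28 and 6 in MET. The summed level of the 8 was 272.0 to 282.7 TPM in VEH, 270.8 to 285.4 in MET and 109.2 to 116.9 in CJ28, where 8 of 8 were lower (adjusted p under 0.05, limma). Of 15 markers of other cell types, EPCAM was the only one to reach 1 TPM and the only one tested. It was lower in CJ28 than in VEH (log2 fold change -0.36, adjusted p = 0.0085, limma), a call lost after median-of-ratios scaling (adjusted p = 0.0904, limma). The sum of the 15 was 5.73 to 7.18 TPM in VEH, 4.56 to 6.10 in CJ28 and 5.25 to 6.45 in MET. CD3E and TH were listed at 0 in every group. Of the 15, 4 were at 0 throughout VEH, 4 throughout CJ28 and 5 throughout MET. The others apart from EPCAM were detected, with means under 1 TPM. The study states the reads of each library, but TPM does not keep the reads of a gene, so no counting interval is given. Nuclear protein-coding genes held 24.3% to 24.8% of TPM in VEH, 24.1% to 24.6% in MET and 21.3% to 21.4% in CJ28, and RN7SL1 with RN7SL2 held 29.7% to 32.7%, 31.4% to 32.9% and 36.0% to 38.2%. Over all tested genes, the log2 fold change of CJ28 against VEH had a median of -0.13 and 0.014 after median-of-ratios scaling, and the split of calls moved with it, from 3346 higher and 6231 lower to 4925 higher and 4430 lower. Changes below are to be read against that shift, whose part in them was tested by rescaling alone. In these bulk cultures, a change in the number of cells that express a gene and a change in RNA per cell cannot be told apart.

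At rest, after vehicle, the family was led by JUND, the JUN protein usually present in resting cells. The order by mean TPM in VEH was JUND (22.6), MYC (12.8), JUNB (7.56), JUN (4.71), FOSL2 (3.91), IER2 (2.42), FOS (0.763), EGR1 (0.728), FOSB (0.373) and FOSL1 (0.120). Neighbours in this order had ranges that did not overlap, except FOS with EGR1 and EGR1 with FOSB. With CJ28, JUN moved past JUNB to the third place, and its range overlapped that of MYC. FOSL2 then overlapped IER2, and FOSB overlapped FOSL1. In MET the order was that of VEH, with JUN and FOSL2 overlapping. FOSL2 held 71.1% to 79.4% of the summed TPM of the FOS family in VEH, 69.0% to 81.6% in CJ28 and 67.3% to 80.9% in MET. The summed JUN family exceeded the summed FOS family by 6.77 ± 0.422 times in VEH, 9.04 ± 0.830 times in CJ28 and 6.13 ± 0.341 times in MET.

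**Figure D1:**
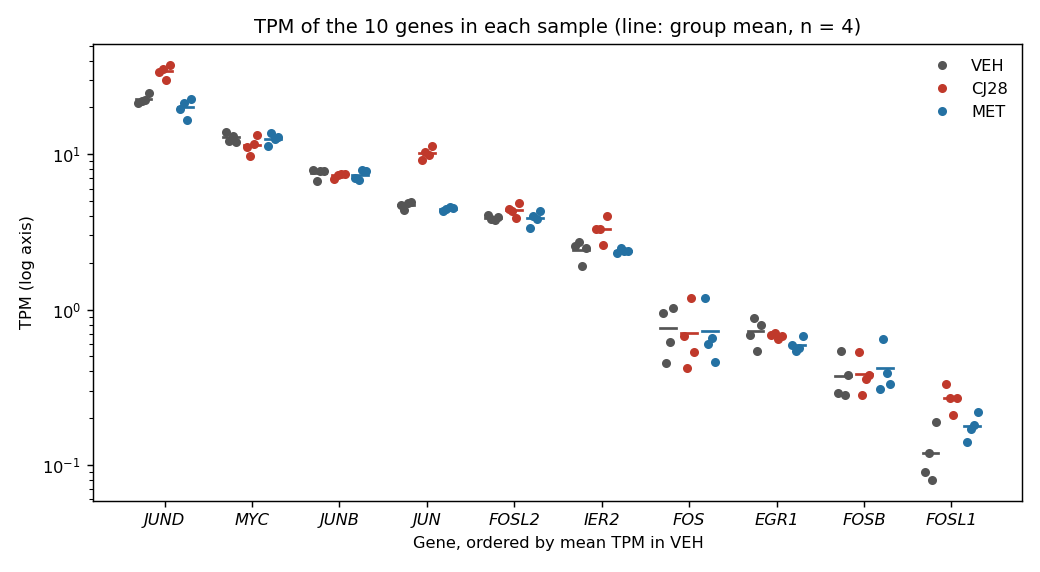
TPM of the 10 genes on a log axis, with 1 point per sample, colour for VEH, CJ28 and MET, and a line at each group mean (n = 4). The CJ28 points of JUN and JUND, and at a far lower level FOSL1, lie wholly above those of VEH, and those of FOS are spread over 0.42 to 1.18 TPM.

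The first question was whether CJ28 altered these genes at 24 h. The groups were compared with limma on log2(TPM + 0.1) over the 16815 genes with at least 0.5 TPM in at least 4 samples, and a gene was called at a Benjamini-Hochberg adjusted p under 0.05 over all of them. Of the 10 members, 8 passed that filter, while FOSL1 and FOSB lay under it. CJ28 raised 3 of the 8 (JUN, JUND and IER2) and lowered 0, where 19.9% of all tested genes were called higher, 37.1% lower and 57.0% in either direction. The median log2 fold change of the 8 was 0.058, beside -0.13 for all tested genes. The samples of CJ28 and VEH did not overlap in 3 of the 10 members, all higher in CJ28 (JUN, JUND and FOSL1), and such a gap upward was found in 17.7% of tested genes and in 8.3% of the 40973 genes with any TPM above 0. Calls of this kind were thus common across the transcriptome.

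JUN, the AP-1 protein most closely tied to stress kinases, was at 4.69, 4.35, 4.84 and 4.94 TPM in VEH and at 9.23, 10.40, 9.89 and 11.31 TPM in CJ28. Every CJ28 sample lay far above every VEH sample. This was a rise of 1.10 on the log2 scale, with a standard error of 0.065 and an adjusted p of 2.1e-08 (limma), which placed JUN above 97.9% of the tested genes. Leaving out each sample in turn gave 1.05 to 1.15. Over the other alternatives it ran from 0.97 to 1.302, with the upper end for TPM recomputed over nuclear protein-coding genes.

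JUND, which often restrains growth where JUN promotes it, was at 21.25, 22.14, 22.18 and 24.91 TPM in VEH and at 33.72, 35.35, 30.04 and 37.64 TPM in CJ28. The groups did not overlap, and CJ28-3 was the lowest of its group. The rise was 0.59 on the log2 scale, with an adjusted p of 1.5e-04 and a standard error of 0.093 (limma). JUNB, the third JUN protein and in many cells a brake on JUN activity, was at 7.97, 6.69, 7.80 and 7.77 TPM in VEH and at 6.94, 7.37, 7.50 and 7.51 TPM in CJ28. These ranges overlapped throughout. The log2 fold change of JUNB was -0.04 (95% confidence interval -0.19 to 0.10, adjusted p = 0.626, limma), and its sign turned to 0.11 after median-of-ratios scaling and to 0.16 over nuclear protein-coding genes, with adjusted p of 0.239 and 0.0594. No scaling enters a ratio of genes within a library. The ratio of JUN to JUNB was 0.588 to 0.650 in VEH, 1.32 to 1.51 in CJ28 and 0.578 to 0.650 in MET, and that of JUND to JUNB was 2.67 to 3.31 in VEH, 4.01 to 5.01 in CJ28 and 2.10 to 3.13 in MET. JUN therefore changed by more than JUNB in CJ28, as did JUND. As a share of the JUN family, JUN went from 13.5% ± 0.431 in VEH to 19.7% ± 0.980 in CJ28, JUNB from 21.7% ± 1.55 to 14.2% ± 1.09 and JUND from 64.8% ± 1.96 to 66.0% ± 1.86.

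**Figure D2:**
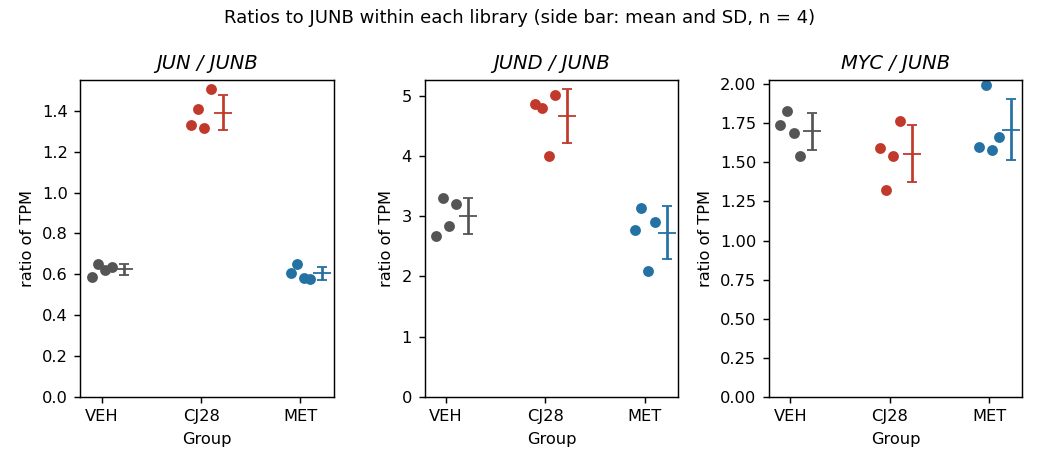
Ratio of the TPM of JUN, JUND and MYC to that of JUNB in each library, with 1 point per sample and the group mean ± SD (n = 4) at its side. The CJ28 points lie above all VEH and MET points for JUN and for JUND (JUN to JUNB at 1.32 or more, against at most 0.650 elsewhere), whereas for MYC the 3 groups overlap.

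Among the FOS family, FOS itself, the classic early gene, stood near the lower limit of the test. It was at 0.95, 0.45, 0.62 and 1.03 TPM in VEH and at 0.68, 0.42, 1.18 and 0.53 TPM in CJ28. The highest value exceeded the lowest by 2.29 times within VEH and 2.81 times within CJ28, so the spread inside a group was wider than any difference between groups. The log2 fold change was -0.13 (95% confidence interval -0.86 to 0.60, adjusted p = 0.762, limma), and an effect of FOS within that interval was not detectable here. The pooled SD of FOS on the log2 scale was 0.52, above that of 92.8% of tested genes and above the median of 0.31 for genes at 0.5 to 1 TPM. FOSL2, the most abundant of the family, was at 4.06, 3.85, 3.78 and 3.94 TPM in VEH and at 4.45, 4.31, 3.90 and 4.85 TPM in CJ28. Of the CJ28 samples, 3 lay above every VEH sample and CJ28-3 lay among them. The log2 fold change was 0.16 (95% confidence interval -0.02 to 0.33, adjusted p = 0.119, limma). This call depended on scaling, since it was 0.31 after median-of-ratios scaling (adjusted p = 0.0046, limma) and 0.36 over nuclear protein-coding genes (adjusted p = 0.0016, limma), and without CJ28 replicate 3 it was 0.21 (adjusted p = 0.0474, limma).

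FOSL1, a late-rising member of the family, was low in every culture, at 0.09, 0.12, 0.08 and 0.19 TPM in VEH and 0.33, 0.27, 0.21 and 0.27 TPM in CJ28. The groups did not overlap, and only VEH-4 came near the lowest CJ28 sample. The difference of means was 0.150 TPM (p = 0.0286 by an exact two-sided permutation test, which can go no lower with 4 samples a group, in a family of 30 member tests). With no filter, FOSL1 was higher by 0.77 on the log2 scale, with an adjusted p of 0.019 (limma). Against MET the same fit gave 0.41 (adjusted p = 0.217, limma), and the samples of CJ28 and MET overlapped. FOSB, which is induced with FOS in many cells, was at 0.29, 0.54, 0.28 and 0.38 TPM in VEH and at 0.53, 0.28, 0.36 and 0.38 TPM in CJ28, ranges that nearly coincide (exact permutation test, two-sided, n = 4 per group, p = 1.0).

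EGR1, which binds GC-rich promoter sites, was at 0.69, 0.88, 0.54 and 0.80 TPM in VEH and at 0.69, 0.71, 0.65 and 0.68 TPM in CJ28. All CJ28 values fell inside the VEH range. Its log2 fold change was -0.06 (95% confidence interval -0.40 to 0.27, adjusted p = 0.748, limma), with the opposite sign, 0.071, after median-of-ratios scaling. IER2, a nuclear protein induced with FOS and EGR1, was at 2.58, 2.72, 1.90 and 2.49 TPM in VEH and at 3.30, 3.28, 2.60 and 4.02 TPM in CJ28. In IER2, 3 of the 4 CJ28 samples exceeded every VEH sample, and CJ28-3 overlapped them. The rise was 0.43 on the log2 scale (adjusted p = 0.0131, limma, with a standard error of 0.13), and it stayed between 0.32 and 0.53 with each sample left out, with adjusted p of at most 0.0403. On linear TPM the same difference gave p = 0.0571 (exact permutation test, two-sided, n = 4 per group).

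MYC was at 13.87, 12.22, 13.18 and 11.97 TPM in VEH and at 11.07, 9.75, 11.57 and 13.24 TPM in CJ28. In CJ28, 3 samples fell below every VEH sample, and CJ28-4 lay within the VEH range. The log2 fold change was -0.17 (95% confidence interval -0.36 to 0.02, adjusted p = 0.114, limma), close to the median of all genes. It was -0.020 after median-of-ratios scaling and 0.032 over nuclear protein-coding genes. Without CJ28 replicate 4 it was -0.25 with an adjusted p of 0.0212 (limma), so this library decided on which side of the threshold MYC fell.

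**Figure D3:**
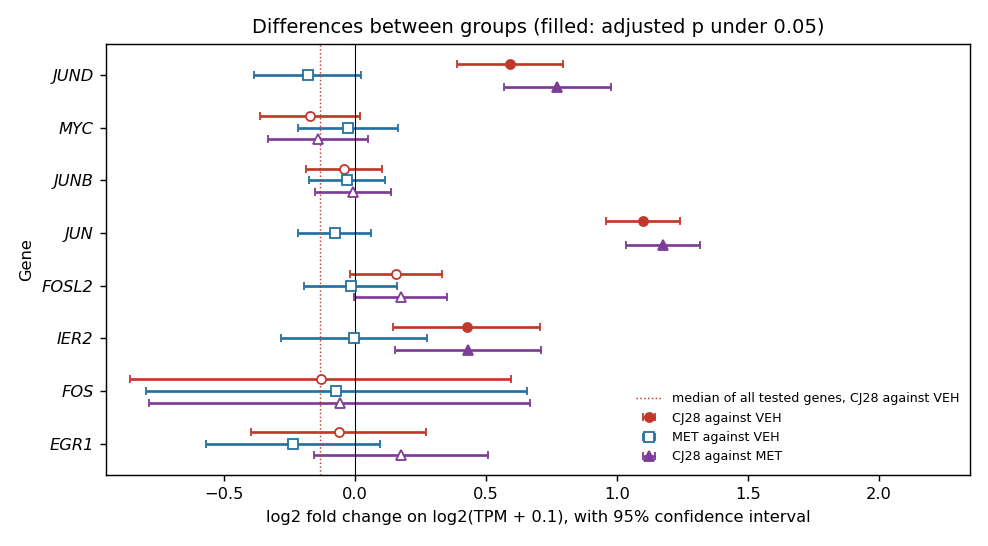
Log2 fold change of the 8 tested genes for CJ28 against VEH, MET against VEH and CJ28 against MET, with 95% confidence intervals and filled marks where the adjusted p was under 0.05 (limma, n = 4 per group). JUN (1.10), JUND (0.59) and IER2 (0.43) are filled for CJ28 against VEH, no mark of MET against VEH is, and the dotted line shows the median of all tested genes (-0.13).

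The second comparison asked whether MET, at the same dose and time, acted on these genes. None of the 8 tested members was called (0 higher, 0 lower, limma), 0 of 8 had an unadjusted p under 0.05 and 0 of 10 passed the exact permutation test on TPM. The samples of MET and VEH overlapped in all 10 members, and were apart in 2.81% of tested genes. Over all tested genes, 0.00595% were called and 5.2% had an unadjusted p under 0.05. JUN was at 4.29, 4.43, 4.59 and 4.48 TPM in MET, within or just under the VEH range, and JUND at 19.63, 21.38, 16.59 and 22.52 TPM. Their log2 fold changes were -0.08 (95% confidence interval -0.22 to 0.06) and -0.18 (-0.38 to 0.02). EGR1, at 0.59, 0.54, 0.57 and 0.68 TPM, had the value farthest from 0, a log2 fold change of -0.24 (95% confidence interval -0.57 to 0.09, adjusted p = 0.938, limma). IER2 (2.31, 2.50, 2.39 and 2.38 TPM), JUNB (7.06, 6.82, 7.91 and 7.75 TPM), FOSL2 (3.37, 3.99, 3.84 and 4.29 TPM) and MYC (11.27, 13.61, 12.49 and 12.89 TPM) had log2 fold changes between -0.03 and 0.00, of which those of IER2, FOSL2 and MYC turned positive after median-of-ratios scaling. The wide values of FOS recurred in MET, with 1.19, 0.60, 0.66 and 0.46 TPM. FOSB was at 0.31, 0.65, 0.39 and 0.33 TPM, and FOSL1 at 0.14, 0.17, 0.18 and 0.22 TPM. For JUN the interval leaves room for a rise of at most 0.06 on the log2 scale, but for FOS it reaches 0.66, so a change of FOS with MET was not resolved.

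CJ28 and MET were then compared directly, both at 30 µM for 24 h. Their structures are unrelated, CJ28 being a benzimidazolylurea and MET a dipyridyl ketone. The same 3 members, JUN, JUND and IER2, were higher in CJ28, and 0 were lower, where 20.9% of tested genes were called higher, 34.6% lower and 55.5% in either direction. The log2 difference was 1.18 for JUN (standard error 0.065, adjusted p = 1.1e-08, limma), 0.77 for JUND (standard error 0.093, adjusted p = 1.6e-05) and 0.43 for IER2 (standard error 0.13, adjusted p = 0.0127). The samples of the 2 treatments did not overlap in any of these 3 genes, as in 18.9% of tested genes in this direction. This comparison shares the CJ28 samples with that against VEH and is no separate test of them. FOSL2 differed by 0.17 (95% confidence interval -0.00 to 0.35, adjusted p = 0.0876) and MYC by -0.14 (-0.33 to 0.05, adjusted p = 0.186). Without CJ28 replicate 3 the FOSL2 difference was 0.23 (adjusted p = 0.0348, limma), without MET replicate 4 it was 0.22 (adjusted p = 0.0399, limma), and without CJ28 replicate 4 that of MYC was -0.22 (adjusted p = 0.0374, limma). FOSL2 was called after median-of-ratios scaling, with a log2 difference of 0.29, and over nuclear protein-coding genes JUNB was called as well, with 0.18.

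**Figure D4:**
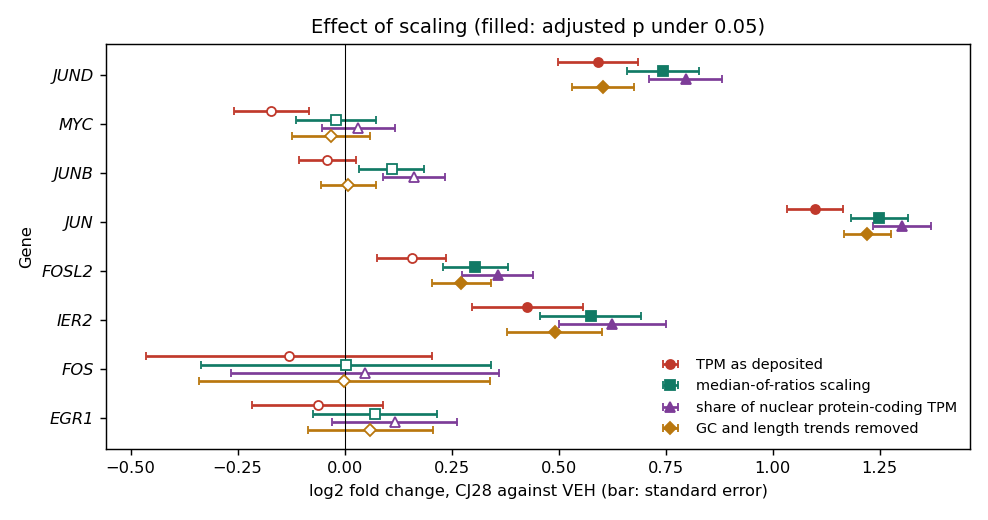
Log2 fold change of the 8 tested genes for CJ28 against VEH under 4 treatments of the TPM values, with standard errors and filled marks for an adjusted p under 0.05 (limma). JUN, JUND and IER2 are filled in all 4, FOSL2 in all but the TPM as deposited, and FOS, JUNB, EGR1 and MYC in none.

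Gene structure was set beside these changes. JUN, JUNB and JUND are single-exon genes, and the 317 tested protein-coding genes with 1 exon had a median log2 fold change of -0.37 for CJ28 against VEH, with 11.7% called higher, against -0.11 and 23.3% for the 12186 with several exons. JUN and JUND rose where the median of the single-exon genes was negative. The part of gene structure in these changes was not tested. The GC content of the longest transcript was 69.9% for JUND, 64.9% for JUNB, 61.7% for IER2, 56.1% for JUN, 55.3% for EGR1, 53.3% for FOSL2, 52.8% for FOS and 48.8% for MYC. Protein-coding genes of 65% GC or more had a median of -0.031, with 26.9% called higher. Those of 55 to 65% GC had -0.098, with 24.2% called higher. After trends on GC content and length were removed, an alternative chosen after seeing the data, the log2 fold change was 1.22 for JUN, 0.60 for JUND and 0.49 for IER2.

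The genes whose pattern came closest to that of a member were sought for 3 of the 8 tested members. These had the largest log2 fold change for CJ28 against VEH, and FOSL1, under the filter, was not considered. Likeness was the root mean square difference of log2(TPM + 0.1), relative to the VEH mean, over all 12 samples and among 13445 genes with a mean of at least 1 TPM. Among the 3 genes closest to JUN were MAFG (0.068) and MARS1 (0.076). MAFG, a small MAF protein of the bZIP class, went from 7.55 TPM in VEH to 16.5 in CJ28 and 7.17 in MET. JUND was most like IRX6 (0.088), CCDC85B (0.102) and HMGXB3 (0.106), and IER2 most like UBR4 (0.086), AAK1 (0.095) and YBX3 (0.104). JUN thus had closer neighbours than JUND or IER2 by this measure, which takes in the spread between replicates. The pooled SD on the log2 scale was 0.087 for JUN, 0.15 for JUND and 0.19 for IER2. The part of that spread in the distances was not tested.

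Other immediate early genes were taken as lists, chosen with earlier results of these data known, and are described by counts beside the 19.9% of tested genes called higher and 37.1% called lower with CJ28. Of 24 other early transcription factors, 20 were tested, and 13 rose and 4 fell, with a median log2 fold change of 0.62 (14 rose and 4 fell after median-of-ratios scaling). CEBPB, a bZIP factor, rose from 3.90 ± 0.311 to 16.4 ± 1.15 TPM (log2 fold change 2.05). ATF3, a stress-induced bZIP factor that pairs with JUN proteins, went from 2.32 ± 0.305 to 7.85 ± 1.48 TPM (log2 fold change 1.71), and ID3, an inhibitor of helix-loop-helix factors, from 2.72 ± 0.409 to 8.98 ± 1.47 TPM (1.68). Early genes did not move as a block. NR4A1, the orphan receptor induced by corticotropin, rose from 22.2 ± 1.44 to 43.2 ± 5.30 TPM, while its relative NR4A3 fell from 9.38 ± 0.873 to 4.83 ± 0.288 TPM, a pair chosen after their values were seen. Of the relatives of EGR1, EGR2 was at 0.315 ± 0.0806 TPM in VEH and 0.135 ± 0.0300 in CJ28, and EGR2, EGR3 and EGR4 were all under the filter.

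Among 24 early effectors, 19 were tested, of which 9 rose and 5 fell, with a median log2 fold change of 0.40 (10 and 4 after scaling). PPP1R15A, which brings a phosphatase to the initiation factor eIF2, went from 8.91 ± 0.448 to 45.1 ± 2.51 TPM (log2 fold change 2.33). GADD45A, induced by DNA damage and other stress, went from 3.40 ± 0.502 to 13.6 ± 0.844 TPM (1.98), and CCN1, a secreted matrix protein, from 1.56 ± 0.230 to 5.06 ± 0.566 TPM (1.64). Feedback inhibitors of ERK and JNK numbered 16, and of 12 tested, 6 rose and 2 fell (7 and 1 after scaling). The phosphatase gene DUSP4 rose from 0.395 ± 0.0551 to 2.73 ± 0.157 TPM (log2 fold change 2.52) and SPRY2, an inhibitor of receptor signalling, from 1.37 ± 0.169 to 2.50 ± 0.0968 TPM (0.83). DUSP4, counted among the 6, was at 0.38 TPM in MET and passed the filter of 0.5 TPM through its CJ28 samples alone. In contrast, DUSP6, the ERK phosphatase whose mRNA usually follows ERK activity, fell from 5.27 ± 0.0748 to 2.61 ± 0.272 TPM (-0.99). MET called 0 genes in each of these lists (limma), with 1, 1 and 0 genes at an unadjusted p under 0.05.

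The factors that pair with AP-1 proteins, a list of 15 bZIP genes, had 12 tested, 7 that rose and 1 that fell (8 and 1 after scaling). The small MAF gene MAFF rose from 0.855 ± 0.0580 to 2.26 ± 0.283 TPM (log2 fold change 1.301). ATF3 belongs to this list too. Upstream, 16 of 17 factors of the SRF, ternary complex and CREB group were tested, and 2 rose and 7 fell (5 and 5 after median-of-ratios scaling). MEF2A, which binds the JUN promoter in many cells, went from 14.5 ± 0.496 to 29.4 ± 1.32 TPM (1.01). The CREB coactivator gene CRTC1 fell from 1.29 ± 0.216 to 0.775 ± 0.173 TPM and EP300, an acetyltransferase, from 4.61 ± 0.933 to 3.15 ± 0.534 TPM. All 21 MAP kinase cascade genes were tested, of which 5 rose and 9 fell (10 and 6 after scaling). MAP2K6, which activates p38, fell from 3.52 ± 0.424 to 0.948 ± 0.217 TPM (-1.80), MAPK14, p38α itself, from 28.4 ± 1.37 to 16.9 ± 0.838 TPM (-0.75) and RPS6KA3, a kinase downstream of ERK, from 30.0 ± 1.93 to 17.6 ± 0.413 TPM (-0.77).

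**Figure D5:**
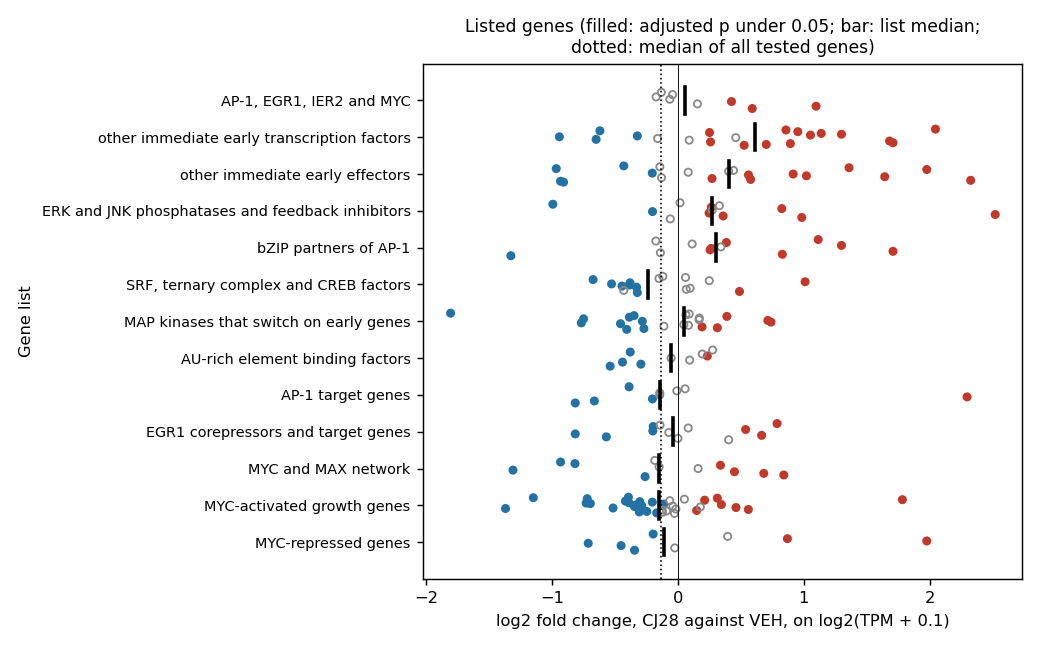
Log2 fold change for CJ28 against VEH of every tested gene of 13 lists, with filled marks for an adjusted p under 0.05 (red higher, blue lower), a black bar at each list's median and a dotted line at the median of all tested genes (-0.13). The medians of the early transcription factors (0.62) and early effectors (0.40) lie to the right of that line, and those of AP-1 and MYC target genes close to it.

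Binding factors of AU-rich elements, the mRNA sites through which early transcripts are degraded or stabilised, were all tested. Of 9, 1 rose and 4 fell (4 and 2 after scaling). HNRNPD fell from 44.9 ± 5.17 to 30.8 ± 1.82 TPM, ELAVL1, a stabilising factor, from 16.7 ± 1.05 to 12.8 ± 0.564 TPM and ZFP36L1, which promotes decay, from 2.57 ± 0.246 to 1.88 ± 0.298 TPM. With 2 genes of the list called lower after scaling, at least 1 of these falls was not called there. Textbook AP-1 target genes numbered 20, and only 9 passed the filter. Of these, 1 rose and 4 fell, with a median log2 fold change of -0.14 (2 and 2 after scaling). The gene that rose on the deposited scale was HMOX1, heme oxygenase, which is also a target of NRF2 and went from 5.11 ± 0.415 to 25.5 ± 0.772 TPM (2.30). TGFB1 fell from 4.06 ± 0.748 to 2.30 ± 0.618 TPM and VIM, vimentin, from 320 ± 16.2 to 202 ± 5.90 TPM. In the EGR1 list, 12 of 15 genes were tested, 3 rose and 4 fell (4 and 2 after scaling). Its corepressor genes moved apart, NAB2 rising from 5.41 ± 0.169 to 8.65 ± 0.211 TPM and NAB1 falling from 8.12 ± 0.464 to 5.45 ± 0.281 TPM. TGFB1, listed with EGR1 as well, is counted in both lists.

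Around MYC, 11 of 13 genes of the MAX network were tested, and 4 rose and 4 fell (5 and 4 after scaling). MXD3 and MXD4, which compete with MYC for MAX, fell from 19.4 ± 1.61 to 7.79 ± 0.729 TPM (-1.31) and from 7.52 ± 0.512 to 3.90 ± 0.216 TPM (-0.93). MXI1, of the same class, rose from 5.40 ± 0.250 to 9.81 ± 1.22 TPM (0.84). MAX, the shared partner and a gene named after its values were seen, rose from 6.37 ± 0.896 to 10.3 ± 1.13 TPM (0.68). MYCN was listed at 0 in every group. Of 35 growth genes that MYC activates, 34 were tested, 7 rose and 18 fell (10 and 10 after scaling), with a median of -0.15 beside -0.13 for all genes. SHMT2, the mitochondrial serine hydroxymethyltransferase and also a target of ATF4, rose from 59.1 ± 2.95 to 204 ± 7.13 TPM, while the cyclin gene CCND2 fell from 15.0 ± 0.945 to 5.75 ± 0.196 TPM and LDHA, lactate dehydrogenase, from 90.2 ± 6.33 to 40.7 ± 2.21 TPM. Among 8 genes that MYC represses, 2 rose (GADD45A, and CEBPA from 1.25 ± 0.103 to 2.37 ± 0.201 TPM) and 4 fell, among them GADD45G from 7.28 ± 0.580 to 4.45 ± 0.770 TPM (4 rose and 2 fell after scaling). In MET, 0 genes of any list were called (limma). The genes of these lists named here with a rise or a fall had adjusted p of at most 0.0130 for CJ28 against VEH (limma), on the scale of the deposited TPM.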

How the data were processed

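Total RNA of 12 NCI-H295R samples was depleted of ribosomal RNA and sequenced from both ends as stranded libraries. The authors trimmed reads with Cutadapt 2.8, mapped them to GRCh38 with STAR 2.7.10b and deposited gene-level TPM from RSEM 1.3.3, to 2 decimals for 60662 genes. Reads that fit more than 1 gene are shared out by RSEM, so near-identical genes are less certain. TPM does not keep the reads of each gene, so the DESeq2 test of the study's methods was not run on these values and limma took its place. Here log2(TPM + 0.1) was fitted with limma 3.58.1 (R 4.3.3; lmFit, eBayes with a trend) in 1 model of all 12 samples over 16815 genes with at least 0.5 TPM in at least 4 samples, with two-sided p-values adjusted by the Benjamini-Hochberg method over those genes. The pseudocount understates changes of low genes. Exact permutation tests of mean TPM used scipy 1.17.1. The fit was tested on simulated data.

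Groups came from sample titles. No samples had identical values (highest pairwise r 0.972). The alternatives were pseudocounts of 1 and 0.01, no filter, a mean of at least 1 TPM, median-of-ratios scaling, nuclear protein-coding genes alone, only the groups compared, a replicate block, no trend, each sample left out and, added later, removal of trends on GC content and length (GENCODE v44). All 10 members are described. From each other list the 3 called genes with the largest change and a mean of at least 1 TPM are named. The rule also names the 3 genes most like each of the 3 tested members that changed most. Of the genes this rule gives, 2 are not reported here. Members and lists were chosen with earlier results of these data known.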

Additional observations from a re-analysis of the deposited data

Results flagged for a closer look

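In JUNB, the VEH-2 sample stood apart from its group. It was at 6.69 TPM, while the other 3 VEH samples were at 7.77 to 7.97 TPM. The gap was large for a group of 4, and it was the only such case among 30 groups of member values, where chance alone gives about 1 in 20. Without VEH replicate 2 the log2 fold change of JUNB for CJ28 against VEH was -0.10 (adjusted p = 0.193, limma), again not past the threshold. VEH-2 was also the lowest VEH sample for JUN and FOS and the highest for EGR1, IER2 and FOSB, in ranges that passed this check.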

How the results depend on the processing

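JUN, JUND and IER2 were called higher in CJ28 than in VEH under all 22 alternatives, and 0 members were called for MET against VEH under any. For CJ28 against VEH the number of members called was 3 or 4, and for CJ28 against MET 5 over nuclear protein-coding genes, where it was 3 in the analysis reported. With the replicate block it was 3, 0 and 3 in the 3 comparisons, as without the block, and it changed no other call of a member. Equal replicate numbers showed no pairing, since the correlations of their deviations from the group means ran from -0.12 to 0.039. With each sample left out, 3 to 4 members were called for CJ28 against VEH and 0 for MET. Without CJ28 replicate 4 MYC was called lower (-0.25), and without CJ28 replicate 3 FOSL2 was called higher (0.21). For CJ28 against MET, the same omissions called MYC (-0.22) and FOSL2 (0.23), and so did that of MET replicate 4 for FOSL2 (0.22).

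The sign of members that did not pass the test was not stable. For CJ28 against VEH, median-of-ratios scaling gave 0.0021 for FOS, 0.11 for JUNB and 0.071 for EGR1, nuclear protein-coding genes alone gave 0.048, 0.16, 0.12 and, for MYC, 0.032, and removal of GC content and length trends gave 0.0085 for JUNB and 0.059 for EGR1. For MET against VEH, the scaling gave 0.013 for FOSL2, 0.026 for IER2 and 0.0023 for MYC, nuclear protein-coding genes 0.0094 for IER2, and trend removal 0.028, 0.021 and 0.0024 for FOSL2, IER2 and MYC. For CJ28 against MET, the scaling gave 0.047 for FOS and 0.11 for JUNB, nuclear protein-coding genes 0.11 for FOS, 0.18 for JUNB and 0.046 for MYC, and trend removal 0.044 for FOS and 0.018 for JUNB. Each of these alternatives recentres the values, and the cause of the shift itself was not tested. With samples left out, log2 fold changes for CJ28 against VEH ran from -0.18 to 0.024 for EGR1 and from -0.38 to 0.049 for FOS. For MET against VEH they ran from -0.31 to 0.091 for FOS, -0.067 to 0.046 for FOSL2, -0.11 to 0.053 for IER2, -0.089 to 0.0046 for JUNB and -0.068 to 0.022 for MYC, and for CJ28 against MET from -0.31 to 0.18 for FOS and -0.046 to 0.025 for JUNB. Levels under 1 TPM limit what could be seen for FOS, EGR1, FOSB and FOSL1.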
